A study of Homo sapiens with 4 samples.

Results

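The EGF receptor family, its ligands and one of its inhibitors were examined in Huh7 and Huh1, established human hepatocellular carcinoma cell lines. The set was chosen by gene symbol as 10 genes, of which 9 had a row among the 18398 transcripts in the files. These were the ligand genes EREG, HBEGF, EGF, BTC and TGFA, the receptor genes EGFR, ERBB2 and ERBB3, and the inhibitor gene ERRFI1. The ligand gene AREG was not analysed here. RNA sequencing libraries had been made from total RNA of Huh7 cells transfected with ODC1 siRNA, Huh7 cells with a negative control (NC) siRNA, Huh1 cells with ODC1 siRNA and Huh1 cells with the NC siRNA, with 1 library for each of these 4 combinations. The labels give neither dose nor time after transfection, and every library is from transfected cells, so no untransfected level is known. ODC1 encodes ornithine decarboxylase, which makes the polyamine putrescine.

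Ligands of this family are made as membrane-anchored precursors, are cut free by proteases, and bind receptors that then pair and signal through tyrosine kinases to the RAS and ERK pathway. EGFR binds EGF, TGFA, HBEGF, betacellulin (BTC) and epiregulin (EREG). ERBB2 has no known ligand and acts as a partner, and ERBB3 binds neuregulins and has little kinase activity of its own. EGFR is abundant in hepatocytes and takes part in liver regeneration, and ERRFI1 encodes a cytosolic inhibitor that binds the EGFR kinase domain.

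Values are RPKM, read counts scaled by transcript length and library depth, so levels of different genes can be compared per length. The recovered depth was between 10215332 and 13384836 reads per library. ODC1 itself stood at 7.501 RPKM with ODC1 siRNA against 167 RPKM with NC siRNA in Huh7, and at 25.01 against 103 RPKM in Huh1, the direction of the labels. This left 4.49% of its NC level in Huh7 and 24.2% in Huh1. Of the 9 hepatocyte markers examined, all were tested, and ALB was between 920 and 3447 RPKM. Between the lines, 3 of the 9 were called higher in Huh7 and 6 lower, against 43.1% and 30.8% of all genes. AFP was at 687 (ODC1 siRNA) and 865 RPKM (NC siRNA) in Huh7 and at 23.8 and 24.8 RPKM in Huh1. APOA1 was at 11.1 and 20.4 RPKM in Huh7 and at 49.5 and 43.0 RPKM in Huh1. The 4 endothelial markers with a row were at or near 0, summing to at most 0.0247 RPKM, and of the 5 blood cell markers CD68, a lysosomal gene of macrophages, alone exceeded 1 RPKM. CD68 was at 6.05 RPKM (ODC1 siRNA) and 3.71 RPKM (NC siRNA) in Huh7 and at 24.8 and 23.3 RPKM in Huh1, whereas PTPRC was at most 0.147 RPKM and HBB was listed at 0. Libraries of the 2 lines differed as well in genes that also mark fibroblasts and bile duct. The 6 fibroblast markers summed to 370 RPKM (ODC1 siRNA) and 284 RPKM (NC siRNA) in Huh7 and to 15.7 and 12.1 RPKM in Huh1. The Huh1 sum was almost all LUM, at 15.5 and 12.0 RPKM. The Huh7 sum was mostly LUM (193 and 143 RPKM), COL1A1 (128 and 107 RPKM) and COL1A2 (45.8 and 31.4 RPKM). DCN and PDGFRB were below 1 RPKM in every library. Of the 6 bile duct markers, 4 were called higher in Huh7 and 2 lower, against 43.1% and 30.8% of all genes. CFTR reached 1 RPKM in Huh7 alone and KRT7 in Huh1 alone, so their calls are no independent support for a difference. SPP1 was at 14.1 (ODC1 siRNA) and 13.1 RPKM (NC siRNA) in Huh7 and at 1769 and 2107 RPKM in Huh1, and KRT19 was at 88.5 and 110.5 RPKM in Huh7 and at 12.0 and 12.0 RPKM in Huh1. In such bulk libraries, fewer cells with a transcript and less of it per cell cannot be told apart.

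The upstream sequences of EREG, HBEGF and EGFR are shown because both ligand genes were higher with ODC1 siRNA in Huh7 while the receptor gene stayed near its control level there. Each is the 250 bases before the RefSeq gene start in build GRCh38.p14, read 5′ to 3′ on the strand of the gene. EREG lies at chr4:74364895-74365144 on the plus strand, HBEGF at chr5:140346604-140346853 on the minus strand and EGFR at chr7:55018767-55019016 on the plus strand. Capitals mark matches on either strand to TATAAA (the TATA box), GGGCGG (the GC box), GGAATG (a TEAD word) and TGANTCA (the AP-1 site).
EREG: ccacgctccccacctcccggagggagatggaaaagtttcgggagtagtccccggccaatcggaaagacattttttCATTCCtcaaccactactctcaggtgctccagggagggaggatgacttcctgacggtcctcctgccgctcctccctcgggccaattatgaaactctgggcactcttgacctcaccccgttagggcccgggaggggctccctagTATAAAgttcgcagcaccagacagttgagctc
HBEGF: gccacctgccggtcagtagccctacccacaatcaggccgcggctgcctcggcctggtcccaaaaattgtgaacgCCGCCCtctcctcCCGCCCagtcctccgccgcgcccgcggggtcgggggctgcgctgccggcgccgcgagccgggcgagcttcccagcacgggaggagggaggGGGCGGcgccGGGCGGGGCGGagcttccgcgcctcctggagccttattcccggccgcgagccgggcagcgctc
EGFR: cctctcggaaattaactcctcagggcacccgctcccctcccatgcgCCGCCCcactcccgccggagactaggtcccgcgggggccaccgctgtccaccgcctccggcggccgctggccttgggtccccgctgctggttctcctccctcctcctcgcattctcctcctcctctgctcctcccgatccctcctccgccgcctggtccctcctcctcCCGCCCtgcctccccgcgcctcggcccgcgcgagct

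The EREG window held 1 TATAAA starting 32 bases before the gene start and 1 GGAATG, on the opposite strand, starting 175 bases before it. It held no GGGCGG and was 58.0% G and C. The HBEGF window held 5 matches to GGGCGG, 2 of which share a base, and the EGFR window held 2; they were 76.4% and 73.6% G and C. None of the 3 windows held TGANTCA. Among 35116 RefSeq windows of this length, 10.7% held TATAAA, 42.6% GGGCGG, 11.9% GGAATG and 6.57% TGANTCA, and the median G and C content was 58.0%. A match is a string of letters and not evidence of binding. In the same gene order on chromosome 4, EREG stands between EPGN and AREG, with BTC next after AREG. EPGN, which encodes the ligand epigen, was at 0.231 RPKM (ODC1 siRNA) and 0.194 RPKM (NC siRNA) in Huh7 and at 0.105 and 0 RPKM in Huh1. The nearest measured ligand genes, EPGN beside EREG and BTC beyond AREG, were thus below 1 RPKM in every library, while EREG was above 5 RPKM in every library. AREG, the direct neighbour on the other side, was not analysed here.

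**Figure D1:**
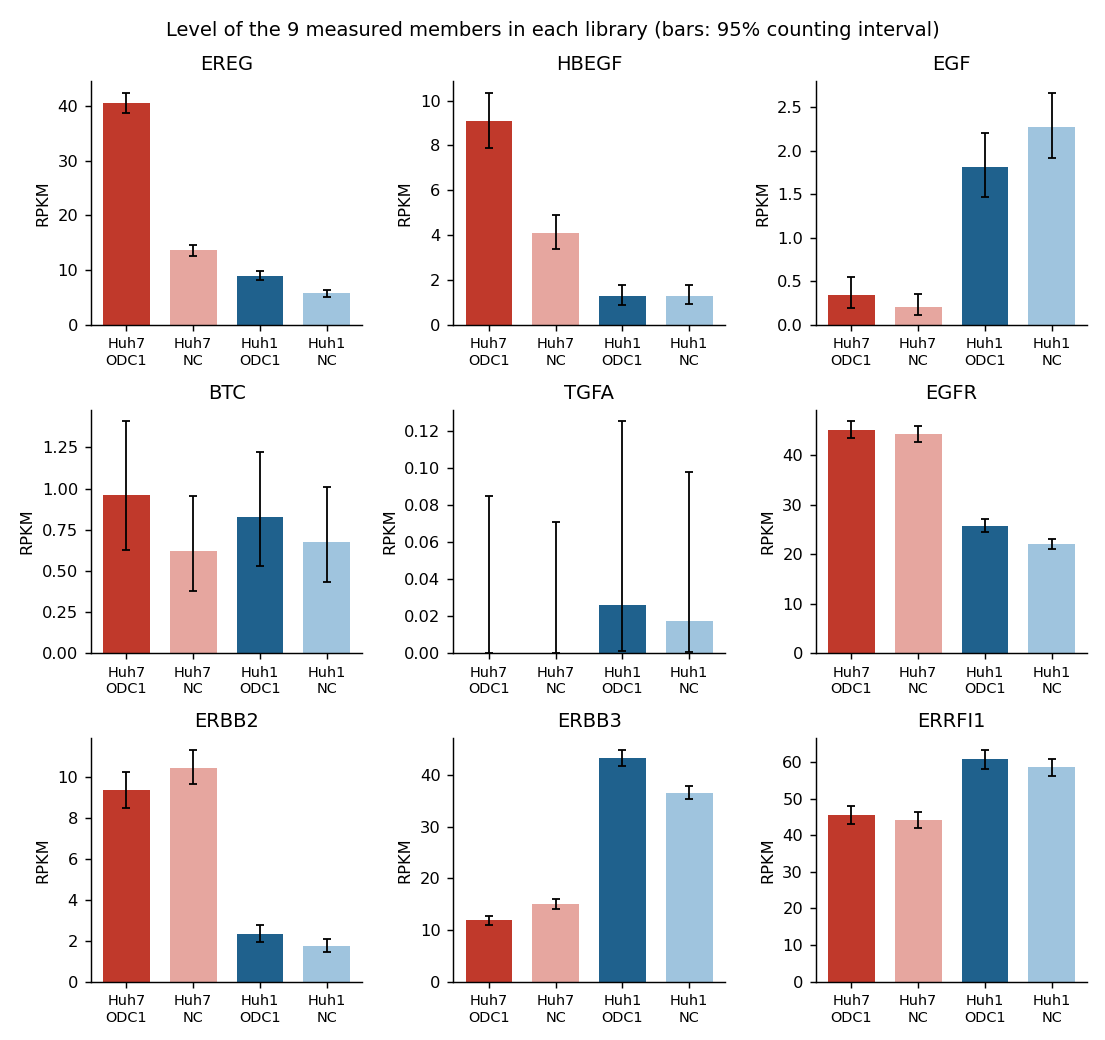
Level of each measured gene in RPKM (vertical axes, each from 0 on its own scale) in the 4 libraries, with ODC1 siRNA left of NC siRNA within each line; error bars are 95% counting intervals. EREG and HBEGF are highest in Huh7 with ODC1 siRNA (40.6 and 9.07 RPKM), EGF and ERBB3 are higher in both Huh1 libraries, and TGFA is at or near 0 throughout.

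The first comparison set ODC1 siRNA against NC siRNA in each line. With 1 library per group it has no test, so ratios of RPKM are given with exact binomial intervals at the 95% level, which cover counting error only. EREG, a ligand of EGFR and ERBB4, was at 40.6 RPKM with ODC1 siRNA and 13.6 RPKM with NC siRNA in Huh7, and at 8.92 and 5.74 RPKM in Huh1. Its ratio was 2.98 in Huh7 (95% interval 2.74 to 3.24) and 1.55 in Huh1 (1.35 to 1.79). EREG was thus higher with ODC1 siRNA in both lines beyond counting error, and the 2 intervals do not overlap. By transcript level it ranked 2003rd of 18398 in Huh7 with ODC1 siRNA and 5287th with NC siRNA, and 6571st and 7792nd in Huh1.

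HBEGF, the heparin-binding ligand, was at 9.07 RPKM with ODC1 siRNA and 4.09 RPKM with NC siRNA in Huh7, a ratio of 2.22 (1.77 to 2.81). In Huh1 it was at 1.29 and 1.30 RPKM, a ratio of 0.990 (0.609 to 1.60). The Huh1 values rest on 34.05 and 41 reads, so a change of up to 1.60-fold there was not detectable at this depth. On the log2(RPKM + 1) scale, used for all log2 values here and understating changes of low genes, the difference between siRNAs was 0.99 in Huh7 and -0.01 in Huh1. The gap between the lines of 0.99 ranked 27th of 12039 genes for HBEGF, and that of 0.95 ranked 30th for EREG. A gap of at least 1 was seen in 0.208% of genes, and neither gene reached it.

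The other ligand transcripts were scarce. BTC was at 0.962 RPKM with ODC1 siRNA and 0.620 RPKM with NC siRNA in Huh7 and at 0.825 and 0.678 RPKM in Huh1, between 20 and 26 reads per library. Its ratios of 1.55 (0.833 to 2.93) and 1.22 (0.648 to 2.19) are within counting error. EGF, the founding ligand, was at 0.339 RPKM with ODC1 siRNA and 0.207 RPKM with NC siRNA in Huh7 and at 1.81 and 2.27 RPKM in Huh1. Its ratios were 1.64 (0.761 to 3.88) in Huh7 and 0.796 (0.612 to 1.04) in Huh1, so neither siRNA difference was beyond counting error. TGFA, another EGFR ligand, had 1.25 reads with ODC1 siRNA and 1 read with NC siRNA in Huh1. In Huh7 it was listed at 0 with both siRNAs, which allows up to 0.0689 RPKM (ODC1 siRNA) and 0.0577 RPKM (NC siRNA) at 3 reads per library. Reads can be fractions in these files.

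Receptor transcripts were compared in the same way. EGFR was at 45.1 RPKM with ODC1 siRNA and 44.2 RPKM with NC siRNA in Huh7, a ratio of 1.02 (0.968 to 1.08). In Huh1 it was at 25.8 and 22.0 RPKM, a ratio of 1.17 (1.09 to 1.25). The EGFR level in Huh7 thus differed by less than counting error, and in Huh1 it was higher with ODC1 siRNA by a small margin.

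ERBB2, the partner receptor gene, was at 9.36 RPKM with ODC1 siRNA and 10.5 RPKM with NC siRNA in Huh7 (ratio 0.894, 0.789 to 1.01) and at 2.33 and 1.74 RPKM in Huh1 (ratio 1.34, 1.02 to 1.75). ERBB3, the neuregulin receptor gene, was at 11.9 RPKM with ODC1 siRNA and 14.99 RPKM with NC siRNA in Huh7 (ratio 0.792, 0.720 to 0.872). In Huh1 it was at 43.3 and 36.6 RPKM (ratio 1.18, 1.12 to 1.25). For ERBB3 the lines differed in direction, each beyond counting error, but within each line many genes differed by more. Counted from the largest rise, ERBB3 ranked 10613th of 12039 genes in Huh7 and 1452nd in Huh1. Its gap between the lines, Huh7 minus Huh1, was -0.55 and less common. Counted from the largest positive gap, it ranked 11615th of 12039. The inhibitor gene ERRFI1 was at 45.5 RPKM with ODC1 siRNA and 44.1 RPKM with NC siRNA in Huh7 and at 60.7 and 58.5 RPKM in Huh1. Its ratios of 1.03 (0.959 to 1.11) and 1.04 (0.978 to 1.1) were within counting error in both lines.

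**Figure D2:**
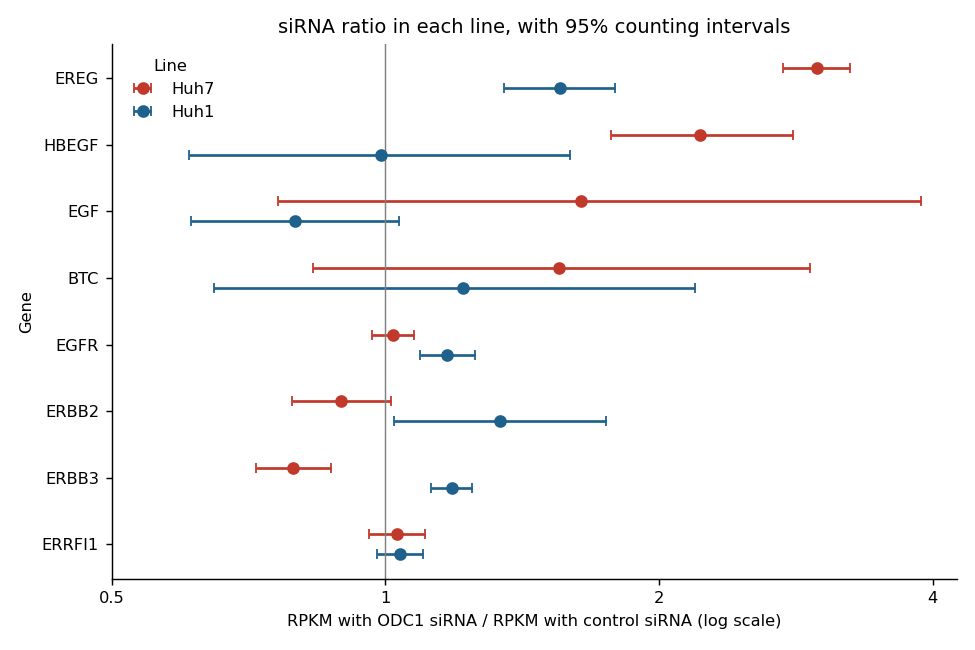
Ratio of RPKM with ODC1 siRNA to RPKM with NC siRNA (horizontal, log scale) for each gene (vertical) in Huh7 and Huh1; bars are 95% counting intervals. EREG lies to the right of 1 in both lines (2.98 and 1.55), HBEGF in Huh7 (2.22), and ERBB3 lies on opposite sides of 1 (0.792 and 1.18).

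By size on the log2(RPKM + 1) scale, among the 6 members that reached 1 RPKM in Huh7, EREG (1.51) was at least 2-fold higher and none was lower, against 0.342% of genes higher, 0.429% lower and 0.771% either way. HBEGF lay just under 2-fold there. Of the 7 members that reached 1 RPKM in Huh1, none differed 2-fold, against 0.055% of genes higher, 0.0275% lower and 0.0825% either way. EREG ranked 3rd of 12039 genes by its difference in Huh7 and 133rd in Huh1. HBEGF ranked 43rd in Huh7 and 6880th in Huh1. ODC1 siRNA differences of opposite sign in the 2 lines were found for 4 of the 7 tested members, namely HBEGF, EGF, ERBB2 and ERBB3, which is 57.1%, against 34.7% of all genes. Of these 4, ERBB3 alone differed beyond counting error in both lines, so the share says little of these genes.

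The effect over both lines was then tested with limma, a linear model across all genes, with line as a second term and the lines as the only repeat of the treatment. The test covered genes that reached 1 RPKM in some library, which kept 7 members and left out BTC and TGFA. EREG rose by 1.03 on the log2 scale (SE 0.19, limma adjusted p = 0.0369), in 2 of 2 lines. This was the 1 member called, against 1.5% of 12039 genes called higher and 0.615% called lower, or 2.12% in all. With upper quartile scaling the calls were 59.7% higher, against 71.0% as reported. The EREG effect was 1.51 without either Huh1 library and 0.56 without either Huh7 library, in each case with no test. It passed in 3 of 9 settings, and its adjusted p ranged from 0.0108 to 1.00. In the same libraries the 6 fibroblast markers summed to more with ODC1 siRNA in Huh7, led by LUM, a matrix proteoglycan gene, at 193 RPKM against 143 RPKM with NC siRNA. LUM was at 15.5 and 12.0 RPKM in Huh1 and rose by 0.39 over both lines (limma adjusted p = 0.0403), a call kept in 3 of 9 settings. Of the 9 hepatocyte markers 1 was called lower and 1 higher, but most were lower with ODC1 siRNA. The difference was positive for 2 of the 9 in Huh7 and for 3 in Huh1. Their median over both lines was -0.20, against 0.01 over all tested genes. ALB fell by 0.32 (limma adjusted p = 0.0232, called in 4 of 9 settings), and TTR, the transthyretin gene, rose by 0.47 (limma adjusted p = 0.0494, called in 2 of 9). CD68 was at 0.33 over both lines (limma adjusted p = 0.219). The part of these markers in the EREG and HBEGF values was not tested.

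HBEGF was at 0.49 over both lines (SE 0.22, limma adjusted p = 0.267), EGFR at 0.12 (adjusted p = 0.469) and ERBB2 at 0.07 (adjusted p = 0.839). ERRFI1 was at 0.05 (adjusted p = 0.765), EGF at -0.03 (adjusted p = 0.939) and ERBB3 at -0.04 (adjusted p = 0.901). None of these 6 passed, and for HBEGF and ERBB3 the mean joins lines that differ. The median over the 7 tested members was 0.07, and over all tested genes 0.01. The model has 1 residual degree of freedom, the difference in effect between the lines, so that difference cannot be tested. No label says that libraries came from separate cultures, so p-values here reflect only how these 4 libraries scatter.

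Summed over the measured genes of each kind, ligand transcripts made 50.9 RPKM with ODC1 siRNA and 18.5 RPKM with NC siRNA in Huh7, and 12.9 and 10.002 RPKM in Huh1. Receptor transcripts made 66.3 and 69.6 RPKM in Huh7, and 71.4 and 60.4 RPKM in Huh1. The ratio of ligand to receptor sums was 0.768 with ODC1 siRNA and 0.266 with NC siRNA in Huh7, and 0.180 and 0.166 in Huh1. The summed receptor level thus lay between 60.4 and 71.4 RPKM. The ligand sum ranged more widely, from 10.002 to 50.9 RPKM, and was highest in Huh7 with ODC1 siRNA.

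EREG made 79.6% of the ligand sum with ODC1 siRNA and 73.5% with NC siRNA in Huh7, and 69.3% and 57.4% in Huh1. HBEGF came next in Huh7 at 17.8% and 22.1%, whereas EGF came next in Huh1 at 14.1% and 22.7%. These shares leave out AREG. EREG thus led the measured ligands in all 4 libraries. The intervals of EGF and HBEGF overlapped in Huh1 with ODC1 siRNA, so EGF was second there beyond counting error only with NC siRNA.

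**Figure D3:**
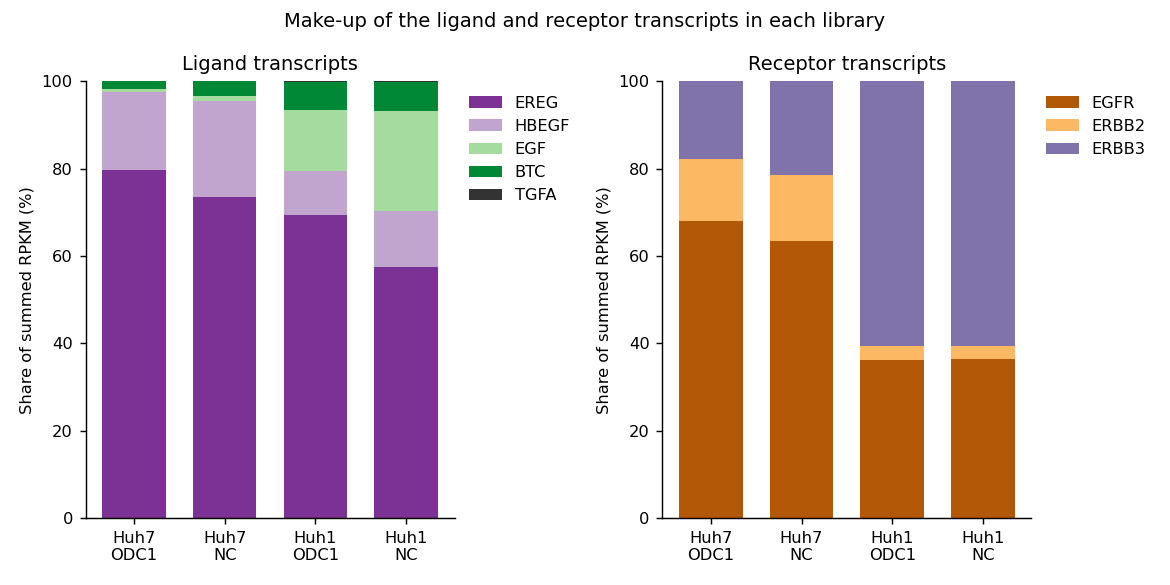
Share of the summed RPKM (percent) of the 5 measured ligand genes and the 3 receptor genes in each library, with ODC1 siRNA left of NC siRNA within each line. EREG makes between 57.4% and 79.6% of the ligand sum, EGFR leads the receptors in Huh7 (68.0% and 63.4%) and ERBB3 in Huh1 (60.6% in both).

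The lines were compared next, Huh7 against Huh1. EGFR made 68.0% of receptor transcripts with ODC1 siRNA and 63.4% with NC siRNA in Huh7, and 36.1% and 36.5% in Huh1. ERBB3 made 17.9% and 21.5% in Huh7, and 60.6% with both siRNAs in Huh1. EGFR stood at 3.80 (ODC1 siRNA) and 2.95 (NC siRNA) times the level of ERBB3 in Huh7, and at 0.596 and 0.602 times in Huh1. Huh7 was thus the line with more EGFR than ERBB3 transcript and Huh1 the line with more ERBB3, under either siRNA.

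Under NC siRNA the level of EGFR was 2.01 times as high in Huh7 as in Huh1 (1.89 to 2.13), that of ERBB2 6.0 times (4.88 to 7.43), that of EREG 2.37 times (2.09 to 2.70) and that of HBEGF 3.14 times (2.18 to 4.59). ERBB3 in Huh7 was at 0.410 times its Huh1 level (0.382 to 0.439), EGF at 0.0910 times (0.0450 to 0.160) and ERRFI1 at 0.754 times (0.708 to 0.803). Both EREG and HBEGF were further apart under ODC1 siRNA, with ratios of 4.55 (4.10 to 5.04) and 7.05 (4.89 to 10.4). ERBB3 was further apart too, at 0.274 (0.252 to 0.298). EGFR was closer, at 1.75 (1.64 to 1.86). For ERBB2, at 4.01 (3.28 to 4.95), and EGF, at 0.188 (0.106 to 0.318), the intervals under the 2 siRNAs overlapped, and ERRFI1 was at 0.749 (0.700 to 0.801). BTC did not differ beyond counting error, with a ratio of 0.914 (0.479 to 1.73) under NC siRNA.

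In the limma fit, with both siRNAs as the repeat of the line, ERBB2 was higher in Huh7 by 1.85 (SE 0.14, limma adjusted p = 4.35e-06), HBEGF by 1.64 (SE 0.22, adjusted p = 0.000141), EREG by 1.59 (SE 0.19, adjusted p = 7.53e-05) and EGFR by 0.88 (SE 0.084, adjusted p = 2.00e-05). ERBB3 was lower in Huh7 than in Huh1 by 1.51 (SE 0.13, adjusted p = 8.45e-06), EGF by 1.25 (SE 0.17, adjusted p = 0.000206) and ERRFI1 by 0.40 (SE 0.072, adjusted p = 0.000878). All 7 tested members were called, 4 higher and 3 lower, in a comparison that called 73.9% of all genes, 43.1% higher and 30.8% lower, so the count itself says little of these genes. EGF reached 1 RPKM in Huh1 alone, so it entered the test through the line in which it is high, and its call is no independent support for that difference. By size under NC siRNA, 5 of the 7 differed at least 2-fold on the log2 scale, ERBB2, HBEGF and EREG higher in Huh7 and EGF and ERBB3 lower, against 17% of genes higher, 10.2% lower and 27.2% either way. Under ODC1 siRNA the same 5 genes did so in the same directions, against 16.2% of genes higher and 11.1% lower. The median line difference of all genes was 0.13, and 0.02 with quantile normalization. EGFR was at 0.97 on this scale, just inside 2-fold, and ERRFI1 at -0.40.

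**Figure D4:**
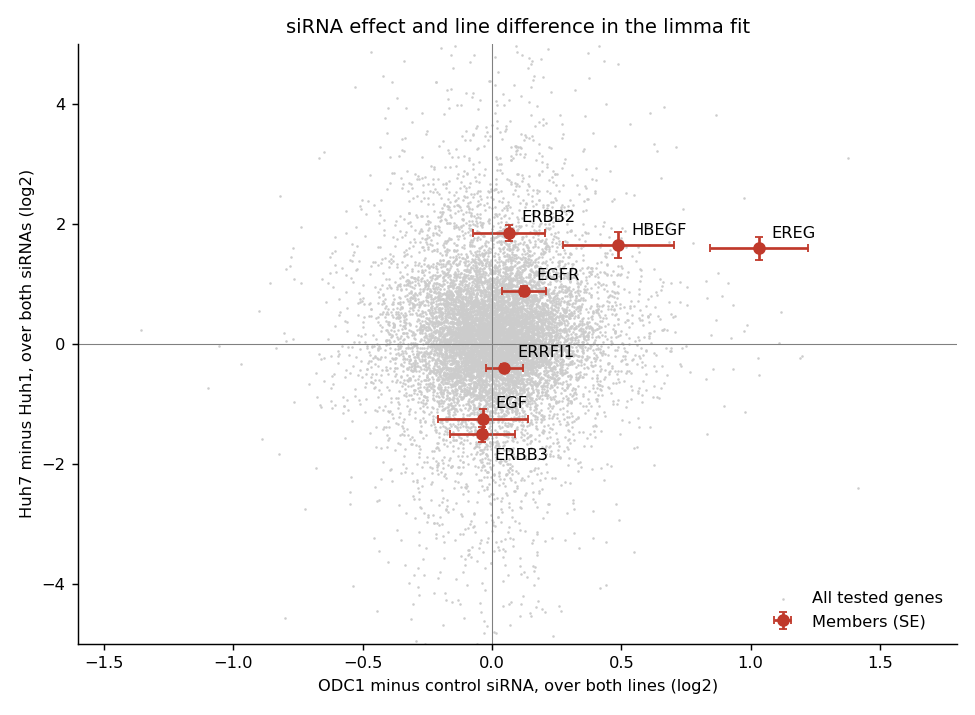
limma log2 difference between ODC1 and NC siRNA over both lines (horizontal) against that between Huh7 and Huh1 over both siRNAs (vertical); grey points are all 12039 tested genes, of which 85 lie outside the axes, and red points are the 7 tested members with standard errors. EREG lies at 1.03 and 1.59, ERBB2 at 0.07 and 1.85, and ERBB3 at -0.04 and -1.51.

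Ordered by level, ERRFI1 and EGFR stood first in Huh7, at 45.5 and 45.1 RPKM with ODC1 siRNA and 44.1 and 44.2 RPKM with NC siRNA, and their intervals overlapped under each siRNA. EREG came next with ODC1 siRNA, below both beyond counting error and above ERBB3. With NC siRNA it came after ERBB3, and their intervals overlapped. ERBB2 and HBEGF followed in Huh7, overlapping with ODC1 siRNA and apart with NC siRNA, and BTC, EGF and TGFA were lowest. In Huh1 the order was ERRFI1, ERBB3, EGFR and EREG under both siRNAs, with no overlap of intervals at any step. ERBB2, EGF and HBEGF followed in Huh1 between 1.29 and 2.33 RPKM, with ERBB2 and EGF overlapping under each siRNA. ERRFI1 stood at 1.01 (ODC1 siRNA) and 0.999 (NC siRNA) times the level of EGFR in Huh7, and at 2.36 and 2.66 times in Huh1. EREG reached 0.900 times the level of EGFR in Huh7 with ODC1 siRNA, against 0.308 with NC siRNA, and 0.346 and 0.260 times in Huh1.

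Other receptors and ligands of the family were mostly low. NRG4, a ligand of ERBB4, was at 0.808 RPKM (ODC1 siRNA) and 0.677 RPKM (NC siRNA) in Huh7 and at 5.78 and 6.72 RPKM in Huh1. NRG1, a ligand of ERBB3, was at 0.182 and 0.102 RPKM in Huh7 and at 0.996 and 1.69 RPKM in Huh1. ERBB4, the fourth receptor gene, was at 1.25 and 0.967 RPKM in Huh7 and at 0.00644 and 0.00770 RPKM in Huh1. These 3 of 6 listed genes were tested, and none passed for the siRNA. Each reached 1 RPKM in 1 line alone, so their levels in the lines are given as a description. NRG2, NRG3 and EPGN were below 1 RPKM in every library.

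Genes that act before and after the receptors were then counted, by lists of textbook members, against 1.5% of all genes called higher for the siRNA and 0.615% called lower. Of 10 tested genes of ligand shedding and trafficking, none passed for the siRNA in the limma fit (median -0.04), with RHBDF1, an iRhom partner of the shedding protease ADAM17, at 0.26 (limma adjusted p = 0.292). Of 18 adaptors and proximal effectors none passed (median 0.03), and the largest value was that of the transcription factor gene STAT3, at 28.3 RPKM with ODC1 siRNA against 19.1 RPKM with NC siRNA in Huh7 and at 24.2 against 21.4 RPKM in Huh1 (0.35 over both lines, adjusted p = 0.123). The adaptor gene CRKL was at -0.25 (adjusted p = 0.184). Of 13 genes from RAS to ERK none passed (median 0.03), with RASA1, a GTPase activator that switches RAS off, at 0.40 (adjusted p = 0.106). Of 19 genes of receptor degradation and negative control none passed (median 0.00), with the phosphatase gene PTPN1 at 0.26 (adjusted p = 0.171) and the endocytic adaptor gene EPN1 at 0.25 (adjusted p = 0.182).

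Among 17 tested genes known as outputs of ERK signalling, 1 fell and none rose, against 0.615% and 1.5% of all genes (median 0.17, against 0.01 over all genes). CCND1, the cyclin D1 gene, was at 71.0 RPKM with ODC1 siRNA against 101 RPKM with NC siRNA in Huh7 and at 30.7 against 37.9 RPKM in Huh1, and fell by 0.40 (SE 0.079, limma adjusted p = 0.0452). This call held in 3 of 9 settings, with an adjusted p between 0.0198 and 1.00. FOS, an immediate-early gene, was at 3.31 RPKM with ODC1 siRNA against 1.06 RPKM with NC siRNA in Huh7 and at 2.62 against 1.73 RPKM in Huh1 (0.73 over both lines, adjusted p = 0.0783). FOSL1, which encodes a FOS-related protein, was at 0.35 (adjusted p = 0.106), and the feedback inhibitor gene SPRY2 at 0.65 in Huh7 and -0.09 in Huh1. The siRNA difference was positive for 11 of the 17 genes in Huh7 and for 9 in Huh1, against 5914 and 6546 of all 12039 genes.

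Between the lines, 14 of the 17 ERK output genes were called higher in Huh7 and 1 lower (median 0.94), against 43.1% and 30.8% of all genes and a median of 0.13. ETV4, an ETS factor gene, was at 20.8 RPKM (ODC1 siRNA) and 25.7 RPKM (NC siRNA) in Huh7 and at 1.62 and 1.69 RPKM in Huh1. SPRY2 was at 30.9 and 19.3 RPKM in Huh7 and at 4.09 and 4.43 RPKM in Huh1, and FOSL1 was the gene called lower. In the RAS to ERK list 6 were higher and 2 lower. The adaptor list had 7 higher and 6 lower, the degradation list 9 and 5, and the shedding list 3 and 4. These lists are described by counts, with no test.

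**Figure D5:**
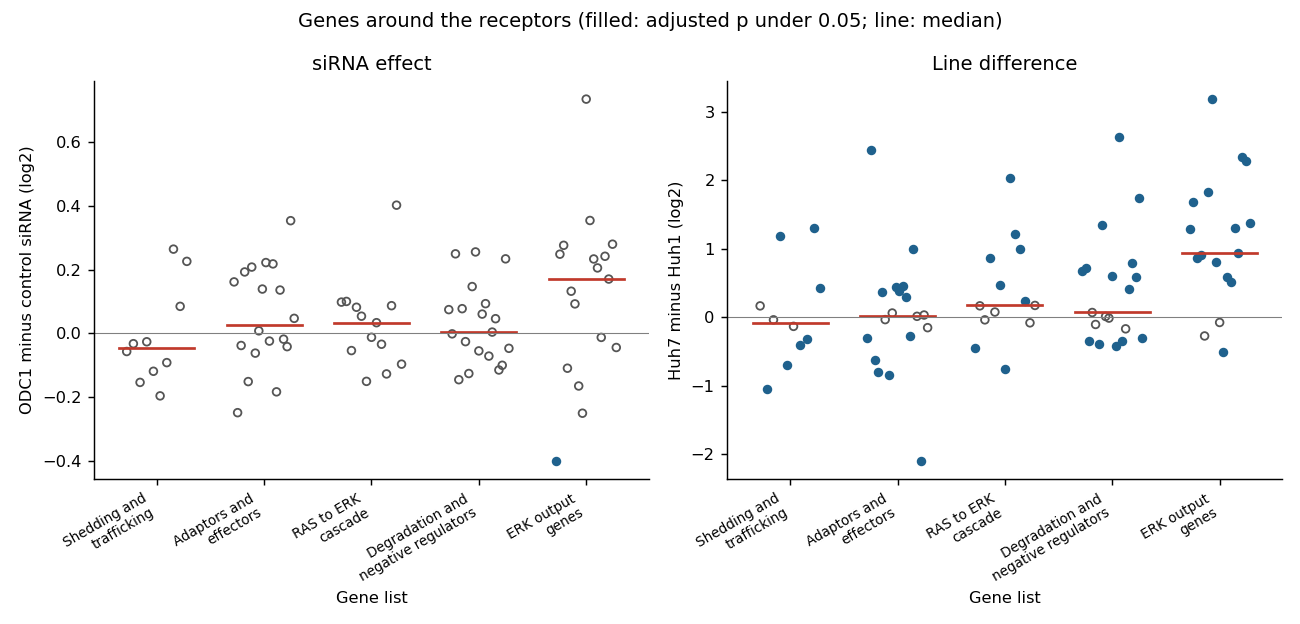
limma log2 difference of each tested gene of 5 lists for ODC1 minus NC siRNA (left) and Huh7 minus Huh1 (right); filled points passed an adjusted p of 0.05, open points did not, and red lines are medians. CCND1 is the single filled point on the left, and the ERK output genes have the highest median on the right (0.94).

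Genes with the most similar pattern were sought by Euclidean distance between log2 values over the 4 libraries, each gene centred on its mean, among 9508 genes with at least 5 RPKM in some library. Nearest to EREG were BTG2, an antiproliferative gene (distance 0.466), LGALS2, a galectin gene (0.472), and RND1 (0.483). BTG2 was at 24.8 RPKM with ODC1 siRNA and 13.1 RPKM with NC siRNA in Huh7, and at 5.96 and 3.94 RPKM in Huh1. Values were not scaled, so genes that vary less over the libraries have smaller distances, and distances cannot be compared between genes. Nearest to EGFR were FAM86C1 (0.0411), which belongs to a family of near-identical copies and is uncertain, and ZFP82, a zinc finger gene (0.0464). HMGN2, which encodes a nucleosome-binding protein, came next (0.0517). ERBB3 was nearest to PSMB8, a proteasome subunit gene (0.0661), EME2 (0.0907) and ALDH5A1 (0.0984). ERRFI1 was nearest to COPS3 (0.0197), UBA1 (0.0201) and COX6B1 (0.0215), genes of a signalosome subunit, a ubiquitin-activating enzyme and a respiratory chain subunit. With 4 libraries such distances describe these values only.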

How the data were processed

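Per the labels' protocols, a TruSeq RNA kit was used on total RNA. The submitters' processing notes list CASAVA 1.8.2, TopHat2 2.0.9 and hg19. How reads were counted, and whether by strand, is not given in the sources used here. Overlapping antisense genes may therefore share reads. The authors deposited RPKM values for 18398 RefSeq transcripts, 1 file per library. No replicate number is given, and nothing says that cultures were repeated.

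RPKM values are not counts, so log2(RPKM + 1) was analysed with limma 3.58.1 in R 4.3.3, with line and siRNA as terms, an intensity trend, two-sided tests and Benjamini-Hochberg adjustment over 12039 genes at a threshold of 0.05. The 1 residual degree of freedom was moderated by 7.42 prior degrees of freedom, so a gene's SE rests mostly on other genes of like expression. The fit was also run on simulated data in which each changed gene had the same fold in both lines. That run therefore does not bear on genes such as EREG, whose effect differed between the lines.

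Relative depth came from ratios of values under 0.1 RPKM, and absolute depth from the GENCODE release 29 length. Reads of EGFR, ERBB2, BTC, HBEGF, TGFA and ODC1 used the 1 length near the GENCODE one at which all values were common fractions of a read. Other genes used the GENCODE length. Intervals were computed with scipy 1.17.1: exact binomial for ratios, with reads rounded, and exact Poisson for levels in the plot. They and the limit of 3 reads cover counting error only, and PCR copies are not independent molecules.

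Upstream sequences are from RefSeq, matched by symbol for 9 of the 10 genes (ERBB3 had no entry).

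The members and gene lists were chosen with earlier results of these data known. The genes named are all members, ODC1, the most similar genes of EREG, EGFR, ERBB3 and ERRFI1, and, from each list, some of those called or with the largest siRNA effect. The alternatives changed the scaling (quantile or upper quartile), the pseudocount (0.1), the filter (none or 5 RPKM), the fold rule (1.5), limma's trend (none or counting variance) and the second term (left out), or dropped each library in turn. The lines pair the libraries, and line is the block.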

Additional observations from a re-analysis of the deposited data

Results flagged for a closer look

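Of the tested members, 4 had a difference between ODC1 and NC siRNA of opposite sign in the 2 lines, on the log2(RPKM + 1) scale. With 1 library per group this difference between the lines was not tested, and such opposite signs are common, at 34.7% of all tested genes. HBEGF was at 0.99 in Huh7 and -0.0081 in Huh1, where the Huh1 value is within counting error of no difference. EGF was at 0.15 in Huh7 and -0.22 in Huh1, both within counting error. ERBB2 was at -0.15 in Huh7, within counting error, and at 0.28 in Huh1. ERBB3 was at -0.31 in Huh7 and 0.24 in Huh1, both beyond counting error, though within each line many genes differed by more. Its gap between the lines of -0.55 ranked 11615th of 12039 genes, counted from the largest positive gap.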

How the results depend on the processing

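The count of genes called for ODC1 siRNA, 181 higher and 74 lower, depended on the settings. It was 81 and 27 with a filter at 5 RPKM, 43 and 11 with a pseudocount of 0.1, 40 and 12 with quantile normalization, and 286 and 193 with upper quartile scaling. It was 0 and 0 with limma without trend, with no filter and with no replicate block (no line term), where 1830, 2040 and 22 genes had an unadjusted p under 0.05, in that order, against 2286 as reported. The EREG effect kept its direction throughout (0.998 to 1.098 on the log2 scale) and its call with upper quartile scaling and with the trend on counting variance. It lost the call with a pseudocount of 0.1 (adjusted p = 0.0704), the filter at 5 RPKM (adjusted p = 0.0726), quantile normalization (adjusted p = 0.0864), no trend (adjusted p = 0.230), no filter (adjusted p = 0.310) and without the block (adjusted p = 1.00). ODC1 itself, at -3.15, was called in 6 of 9 settings. It was not called with no trend, with no filter or without the block, where no gene passed. EGF, not called, was at 0.10 in place of -0.03 with a pseudocount of 0.1. In the limma fit no other siRNA result of the members changed direction or call among these settings, and all 55 line results of the members kept both.

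By size, with a pseudocount of 0.1, 92 genes were higher and 144 lower in Huh7 and 25 and 20 in Huh1. With a 1.5-fold rule these were 289 and 361 in Huh7, 110 and 40 in Huh1, and 3460 and 2216 for Huh7 against Huh1 under NC siRNA. A filter at 5 RPKM left 31 lower in Huh7. Among the members, the 2-fold rule was scale-dependent for HBEGF between siRNAs in Huh7 and for EGFR between the lines under NC siRNA. Their plain RPKM ratios were 2.22 and 2.01, while on the log2(RPKM + 1) scale they lay just under 2-fold. The median line difference of all genes was 0.13, against 0.02 with quantile normalization and 0.04 with upper quartile scaling. Leaving out 1 library leaves no residual degree of freedom, so counts of calls have no value there. Depth limits BTC, EGF in Huh7, HBEGF in Huh1 and TGFA.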
